A study of Mus musculus with 47 samples.

Results

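The livers of hairless mice that received sunscreens containing organic UVR filters were set against those of mice that received none. Organic filters are carbon-based molecules that absorb ultraviolet radiation (UVR), whereas ZnO and TiO2 are mineral filters. The arm with organic filters held 24 of the 47 arrays in the series, chosen because the sunscreen named in the sample label was either the organic product or the TiO2 product, which combines TiO2 nanoparticles with organic filters. The arm without held the other 23 arrays, from mice with no sunscreen or with a ZnO nanoparticle product. Liver RNA of SKH:QS mice, an albino, immune-competent hairless strain, was taken at week 36, and each mouse had its own Affymetrix Mouse Gene 1.0 ST array. Each mouse underwent 30 weekly treatments, and UVR groups (+UVR) were given 29 kJ/m2 after each application while the others (-UVR) were given none. There were 6 arrays in each of Control-UVR, Control+UVR, ZnO-UVR, TiO2-UVR, TiO2+UVR, Organic-UVR and Organic+UVR, and 5 in ZnO+UVR.

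All mice wore collars during treatment and were washed afterwards, and Control mice were handled in the same way without a product. Per the study's methods all mice were female, and both products with organic filters came from the same manufacturer and had octyl methoxycinnamate and butyl methoxydibenzoylmethane in common. The organic product had 4-methylbenzylidene camphor and octocrylene as well. The filters therefore cannot be told apart from the rest of that manufacturer's formulation. The methods describe open cages that each held as many mice as a treatment group, so that treatment cannot be told apart from cage there, whereas mice were housed singly according to the labels. The hour at which each liver was taken is not given in the sources used here.

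The called decrease of largest size, in Npas2, and the called increase of largest size with a gene symbol, in Tef, were in genes of the hepatic circadian clock. In that clock, CLOCK or its paralogue NPAS2 pairs with BMAL1 and activates the Per, Cry, Nr1d and Ciart genes through E-box sequences, and the products of those genes repress the activators. The PAR bZIP factors TEF, HLF and DBP activate further genes through D-box sequences, at which NFIL3 represses, and the ROR and NR1D receptors act on ROR elements, including that of Npas2. In liver this system gives many metabolic genes a daily rhythm, so that the levels of clock genes depend strongly on the hour of the day. In whole liver RNA, fewer cells of a type and less RNA per cell cannot be told apart.

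Over all arrays, with UVR as a term of the fit, 69 of 9815 transcripts differed with organic filters at an adjusted p under 0.1 (limma), which is 0.703% of those tested. Lower levels made up 52 of the calls (0.53% of transcripts) and higher levels 17 (0.173%). Among called transcripts, the largest differences were in the clock activator Npas2, which was lower by 1.22 on the log2 scale, a 2.32-fold difference, in the β-tubulin gene Tubb2a and in Nckap5. The PAR bZIP factor Tef was 1.49-fold higher. No called transcript separated the arms completely: the arrays of both arms overlapped for all 69, and 0 of the 9815 transcripts had arms that did not overlap. With the 8 group means rather than the arrays as samples no transcript was called (smallest adjusted p 0.241, 1615 transcripts at an unadjusted p under 0.05), so all p-values below measure the spread between mice and not that between groups or cages. One treatment group, TiO2-UVR, did not share most of the differences.

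Sequence is shown for Tef, the clock gene called higher, whose promoters hold a clock element, and for Mir370, the called gene that yields a microRNA. Promoters were read from RefSeq (GRCm38.p6) as a window that spans the transcript's start site and lies mostly before it. Both Tef promoters hold an E-box (CACGTG), printed in capitals below.
Tef, chr15:81802423-81802722, plus strand: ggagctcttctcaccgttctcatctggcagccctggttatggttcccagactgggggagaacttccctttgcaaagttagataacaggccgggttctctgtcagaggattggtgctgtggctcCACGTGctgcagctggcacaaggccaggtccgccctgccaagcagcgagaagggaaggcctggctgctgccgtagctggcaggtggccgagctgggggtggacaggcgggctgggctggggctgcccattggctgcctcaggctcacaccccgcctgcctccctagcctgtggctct
Tef, chr15:81811164-81811463, plus strand: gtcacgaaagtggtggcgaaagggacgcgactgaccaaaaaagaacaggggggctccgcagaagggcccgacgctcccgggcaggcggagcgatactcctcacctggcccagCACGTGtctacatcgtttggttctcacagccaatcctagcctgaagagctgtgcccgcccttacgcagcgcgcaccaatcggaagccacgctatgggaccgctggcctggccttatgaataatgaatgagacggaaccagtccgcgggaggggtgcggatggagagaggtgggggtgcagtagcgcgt
The E-box starts at position −127 from the start site in the first and −138 in the second. On both strands, the same 6 letters occur in 7.15% of 32851 RefSeq promoters, the D-box TTATGTAA in 0.938% and the ROR element core TAGGTCA in 2.61%. Promoters were held for 37 of the 50 named genes called lower, 59 promoters in all, of which 2 hold the E-box (Tars and Net1), 2 the ROR element core (Sumo3 and Bhmt) and 0 the D-box. The promoter window of Npas2 held none of the 3 motifs. None of the 3 motifs contains another, and a match is a description of the letters only.

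Mir370 lies at chr12:109618258-109618336 (GRCm38.p6) in an imprinted cluster of microRNAs. Its mature forms are printed from RefSeq with the seed, bases 2 to 8, in capitals.
miR-370-5p: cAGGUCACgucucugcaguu
miR-370-3p: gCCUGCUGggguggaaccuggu
The array value is not specific to either mature form.

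Npas2 (chr1:39193702-39363240) showed the pattern most plainly. Its log2 level had a lowest, median and highest value of 3.79, 4.19 and 7.30 with organic filters and of 4.02, 6.16 and 7.00 without. The mean was 4.68 ± 1.06 (SD, n = 24) against 5.90 ± 0.95 (SD, n = 23), a difference of −1.22 (SE 0.27, adjusted p = 0.0331). The arms overlapped across nearly their whole ranges. All 18 arrays of TiO2+UVR, Organic-UVR and Organic+UVR lay between 3.79 and 4.82, with group means of 4.15 ± 0.25, 4.14 ± 0.30 and 4.16 ± 0.36 (SD, n = 6 each). TiO2-UVR had a mean of 6.27 ± 0.93 (SD, n = 6), and its values of 4.63, 6.12, 6.22, 6.39, 6.97 and 7.30 left only 1 array within the range of the other 3 groups. In the arm without filters 19 arrays lay above 4.82, whereas Control-UVR replicates 1 and 5 (4.12 and 4.2) and ZnO-UVR replicates 1 and 2 (4.39 and 4.02) were as low as the mice with filters. Low Npas2 was thus also found in 4 mice that received no organic filter.

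**Figure D1:**
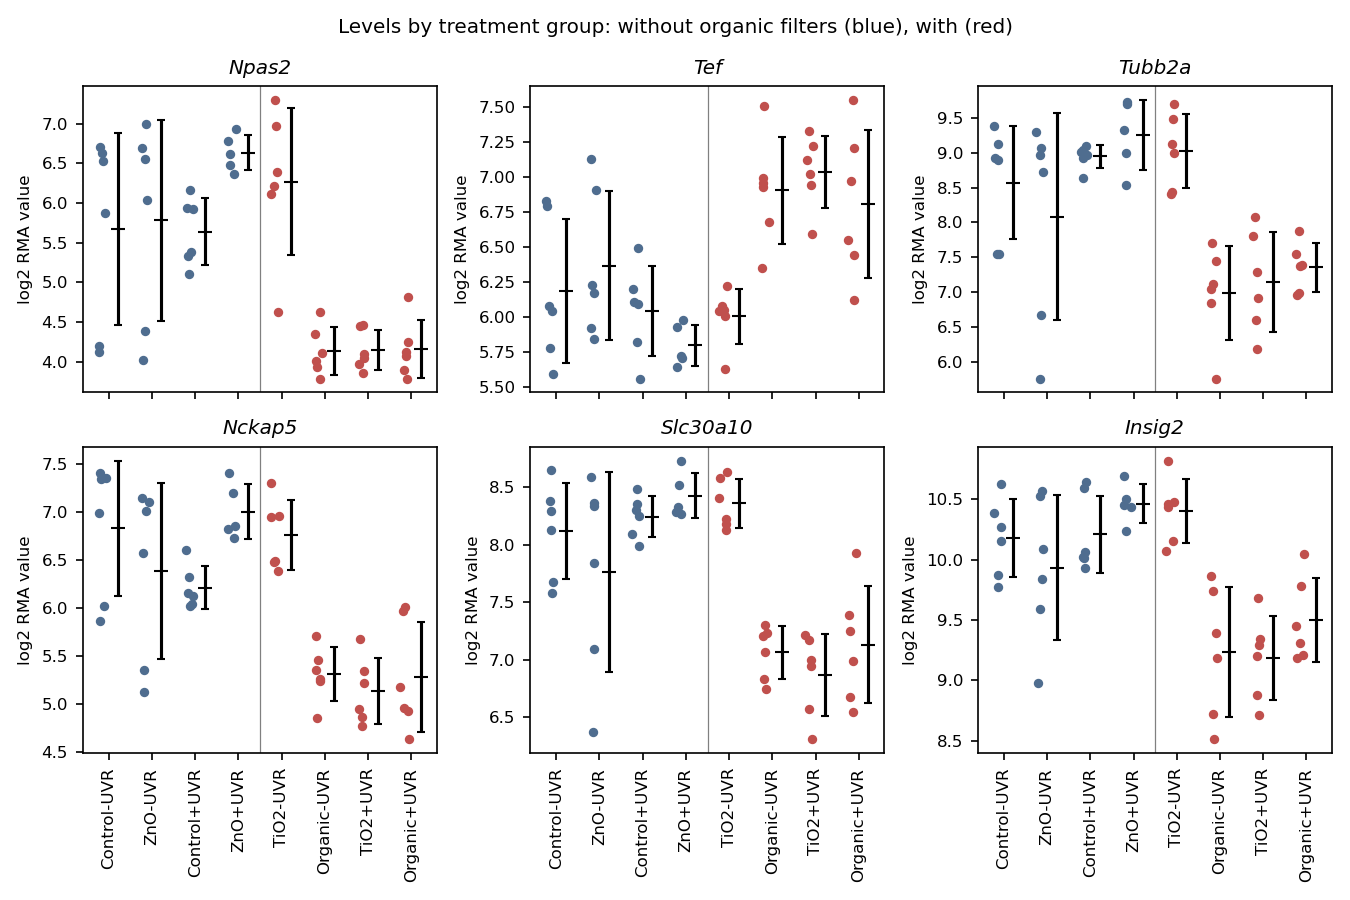
Log2 RMA values (y axis) of 6 called genes in each of the 8 treatment groups (x axis), 1 point per mouse, with the group mean and SD as a dash and bar beside the points. Groups without organic filters are blue and those with them red: TiO2+UVR, Organic-UVR and Organic+UVR are low for Npas2 (group means 4.14 to 4.16) and high for Tef, whereas TiO2-UVR lies with the groups without filters.

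Tef (chr15:81802673-81826863) ran the other way. Its lowest, median and highest values were 5.63, 6.80 and 7.55 with organic filters against 5.56, 6.04 and 7.13 without, with means of 6.69 ± 0.53 (SD, n = 24) and 6.11 ± 0.44 (SD, n = 23). The difference was 0.57 (SE 0.14, adjusted p = 0.0431). Here too the TiO2-UVR mean (6.00 ± 0.20, SD, n = 6) was that of the groups without filters, against 7.04 ± 0.26 in TiO2+UVR and 6.90 ± 0.38 in Organic-UVR. The 4 mice without filters whose Npas2 was low had the highest Tef values of their arm, 6.79, 6.83, 6.91 and 7.13.

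No other measured clock gene was called over all arrays. Of 7 listed genes of the activating arm only Npas2 was measured, of 10 repressors 6 and of 4 output factors 3. The other listed clock genes had no value here. Of the clock repressors, 0 of 6 were called: Ciart differed by 1.24 (SE 0.36, adjusted p = 0.109), Nr1d2 by 0.56 (SE 0.20, adjusted p = 0.171), Per1 by 0.39, Per2 by 0.35, Cry1 by −0.30 and Nr1d1 by 0.10. The median of these 6 was 0.37, against 0.021 for all transcripts. Of the output factors, Tef was the 1 of 3 called, while Hlf differed by 0.33 (adjusted p = 0.121) and the D-box repressor Nfil3 by −0.73 (adjusted p = 0.106). The kinases and adaptors of the clock had 0 of 4 called, with a median of −0.13. Across the 47 arrays the genes most like Npas2 were Nckap5 (Pearson r = 0.918), Asap2 (0.893), Slc30a10 (0.886), Lgalsl (0.877) and Nfil3 (0.852), and those most opposed were Nr1d2 (−0.874), Tef (−0.867), Per1 (−0.822), Ciart (−0.804) and Coq10b (−0.803). These are descriptions over arrays that share groups and normalization. Within the arms, r of Npas2 with Nckap5 was 0.889 among the arrays with filters and 0.88 among those without. The called transcripts are thus not independent of one another.

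**Figure D2:**
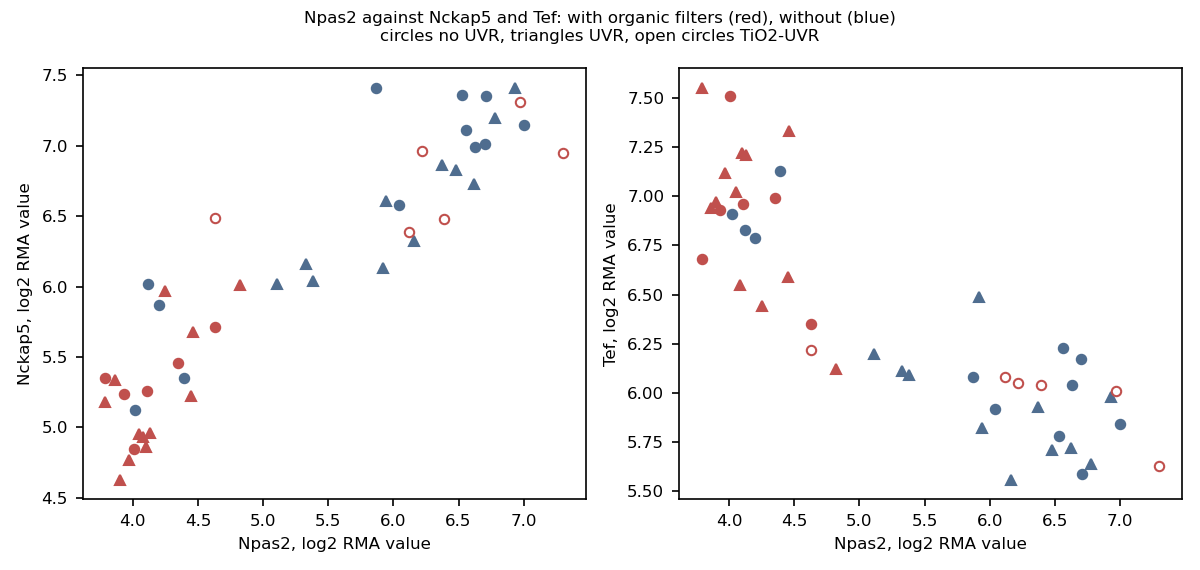
Npas2 (x axis) against Nckap5 (left y axis) and Tef (right y axis), log2 RMA values, 1 point per mouse, red with organic filters and blue without, circles without UVR, triangles with UVR and open circles for TiO2-UVR. Nckap5 rises with Npas2 (r = 0.918) and Tef falls (r = −0.867), and 4 blue circles lie among the red points at the low end of Npas2.

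As a description, a score of the clock was entered as a covariate. It averaged 10 measured clock genes, each standardized, with Npas2, Cry1 and Nfil3 counted negatively. The score was 0.37 ± 0.77 with organic filters (SD, n = 24) and −0.38 ± 0.69 without (SD, n = 23). With it in the fit 0 of 9815 transcripts were called, with 787 at an unadjusted p under 0.05. Npas2 and Tef are themselves part of the score, which was built from these same arrays and differs between the arms. The 0 calls therefore cannot show how far a clock state goes with the contrast. Whether clock phase, hour of collection or the products set the score was not tested.

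Cytoskeletal and membrane traffic genes were among the largest decreases. Tubb2a (chr13:34074278-34078008), which encodes a β-tubulin, had a lowest, median and highest level of 5.76, 7.41 and 9.70 with organic filters and 5.76, 8.97 and 9.72 without, and differed by −1.06 (SE 0.27, adjusted p = 0.0649). Its TiO2-UVR arrays, at 8.4 to 9.70, all lay above those of the other 3 groups with filters, at 5.76 to 8.08. The α-tubulin gene Tuba4a was lower by 0.54 on the log2 scale (adjusted p = 0.0431). Thus 2 of 8 measured tubulin genes were called lower, beside 0.53% of all transcripts, and the median of all 8 was −0.10. Nckap5 (chr1:125913636-126830796), NCK-associated protein 5, ran from 4.63 through 5.35 to 7.31 with filters and from 5.12 through 6.73 to 7.41 without, a difference of −0.96 (SE 0.19, adjusted p = 0.0134). Asap2, an Arf GTPase-activating protein, differed by −0.81 (SE 0.16, adjusted p = 0.0134). These last 2 were the called members of 9 measured genes of actin nucleation and adherens junctions, beside the same 0.53%. Neither is itself an actin nucleator. Microtubule regulators and motors had 0 of 9 called.

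Transport and lipid genes followed. Slc30a10 (chr1:185454848-185468762), a manganese exporter of hepatocytes despite its family's name as zinc transporters, had a lowest, median and highest level of 6.31, 7.21 and 8.63 with filters and 6.37, 8.29 and 8.73 without. It differed by −0.77 (SE 0.17, adjusted p = 0.0314), the only call among 12 measured zinc and manganese transporters, whose median was −0.02. Insig2, which holds the sterol sensor SCAP and its SREBP cargo in the endoplasmic reticulum, was lower by 0.60 on the log2 scale (adjusted p = 0.0481). None of the 7 other measured sterol synthesis genes was called, and the list's median was 0.00. Pctp, a phosphatidylcholine transfer protein, differed by −0.57 (SE 0.12, adjusted p = 0.0134) and Coq8a, a kinase-like protein of coenzyme Q synthesis, by −0.56 (adjusted p = 0.0431).

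Pctp shared only part of the pattern of Npas2. Its level was 5.58, 6.49 and 7.05 at the lowest, median and highest array with organic filters, against 6.26, 7.03 and 7.75 without. Control+UVR ran from 6.26 to 7.13, and all but 1 of its arrays lay below the highest array with filters. As in Npas2, Control-UVR replicates 1 and 5 (6.7 and 6.97) and ZnO-UVR replicates 1 and 2 (6.45 and 6.62) were the lowest of their groups. The difference was −0.70 (SE 0.16) without UVR and −0.44 (SE 0.17) with UVR, whereas most called genes had the larger difference with UVR.

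Signalling, amino acid and protein turnover genes were also among the decreases. Avpr1a, the vasopressin V1a receptor, differed by −0.58 (SE 0.13, adjusted p = 0.0331). The growth hormone effector Stat5b differed by −0.40 (SE 0.08, adjusted p = 0.0134), the only call among 8 measured genes from the growth hormone receptor to Igf1, and Igf1 itself by −0.03. Hal, which begins histidine breakdown, was lower by 0.44 on the log2 scale (1 of 10 genes of aromatic amino acid and histidine breakdown, 9 of them below 0) and Bhmt, which remethylates homocysteine with betaine, by 0.38 (1 of 12 methionine and one-carbon enzymes, 11 of them below 0). Tars, the threonyl-tRNA synthetase, differed by −0.62 (adjusted p = 0.0547), the 1 call among 7 measured synthetases, which all lay below 0. Psmd11, a lid subunit of the proteasome, differed by −0.32 (adjusted p = 0.0856), the only call among 20 measured subunits, all of which lay below 0 with a median of −0.17, whereas 57.2% of all transcripts lay above 0. For the organic product alone, 7 of the 20 subunits and 4 of the 7 synthetases were called lower, beside 4.27% of all transcripts. The difference over all transcripts fell with the mean level (r = −0.416 over transcripts), and the part of this in these counts was not tested. Organic-UVR replicate 1 lay lowest of its group in Tars (7.16, others 8.45 to 9) and Psmd11 (7.83, others 8.89 to 9.25). Without that array the 600 calls of the organic product became 188, and the counts of these lists were not repeated. The transcription factor gene Rfx4 differed by −0.62 and the galectin-like gene Lgalsl by −0.74, both with an adjusted p of 0.0431. Ndrg1, a stress-responsive gene, had one of the smallest adjusted p-values (−0.49, SE 0.09, adjusted p = 0.0122).

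Increases were fewer and fainter. Beside Tef, the neutral amino acid transporter Slc38a1 differed by 0.34 (adjusted p = 0.0547), Mir370 by 0.30 (adjusted p = 0.0906), the kinase Pim3 by 0.26 (adjusted p = 0.0649), Hhipl1 by 0.25 (adjusted p = 0.0431) and Fasl, the ligand of the death receptor Fas, by 0.21 (adjusted p = 0.0824). Leaving out 1 array lost the call of Mir370 for 25 of 47 arrays, of Fasl for 19 and of Pim3 for 6. Only these 6 of the 17 transcripts called higher had a single gene symbol, against 50 of the 52 called lower. The median transcript called higher stood at the 45.9th percentile of level and the median called lower at the 78.2nd, and 10 of 17 and 2 of 52 lay below the median level. Slc38a1 (mean 3.7) and Fasl (mean 3.75) stood at the 17.8th and 18.6th percentiles. Olfactory receptor genes, which liver is not known to use, had similar mean levels of 3.75 with filters and 3.67 without. Across all transcripts the difference correlated with the mean level (r = −0.416 over transcripts, which are not independent). When each array was regressed on the average array, the slope was 0.9872 ± 0.0603 with organic filters (SD, n = 24) and 1.013 ± 0.0313 without (SD, n = 23), a difference of −0.0255 (two-sided permutation test, 100000 resamples, p = 0.0669), with Organic-UVR replicate 1 lowest at 0.772 and a difference of −0.0157 without it. With that slope as a covariate 32 transcripts were called, 14 higher and 18 lower, in place of 17 and 52.

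TiO2-UVR differed from the other 3 groups with filters across most of the 69 calls. Relative to the mean of the 4 groups without filters, every called transcript kept its direction in TiO2+UVR, in Organic-UVR and in Organic+UVR, with median sizes of 0.45, 0.49 and 0.42 on the log2 scale. In TiO2-UVR 47 of 69 did so, with a median size of 0.10, and for 57 of 69 its mean lay nearer to the groups without filters than to the other 3 with them. The 52 transcripts called lower had a median of −0.02 in TiO2-UVR and of −0.52 to −0.56 in the other 3. All 4 group means with filters lay below all 4 without for 13 of these 52 transcripts (2.87% of all transcripts), and above for 10 of the 17 called higher (4.18%). Because these calls were made on the same arrays, the counts describe them and carry no test.

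**Figure D3:**
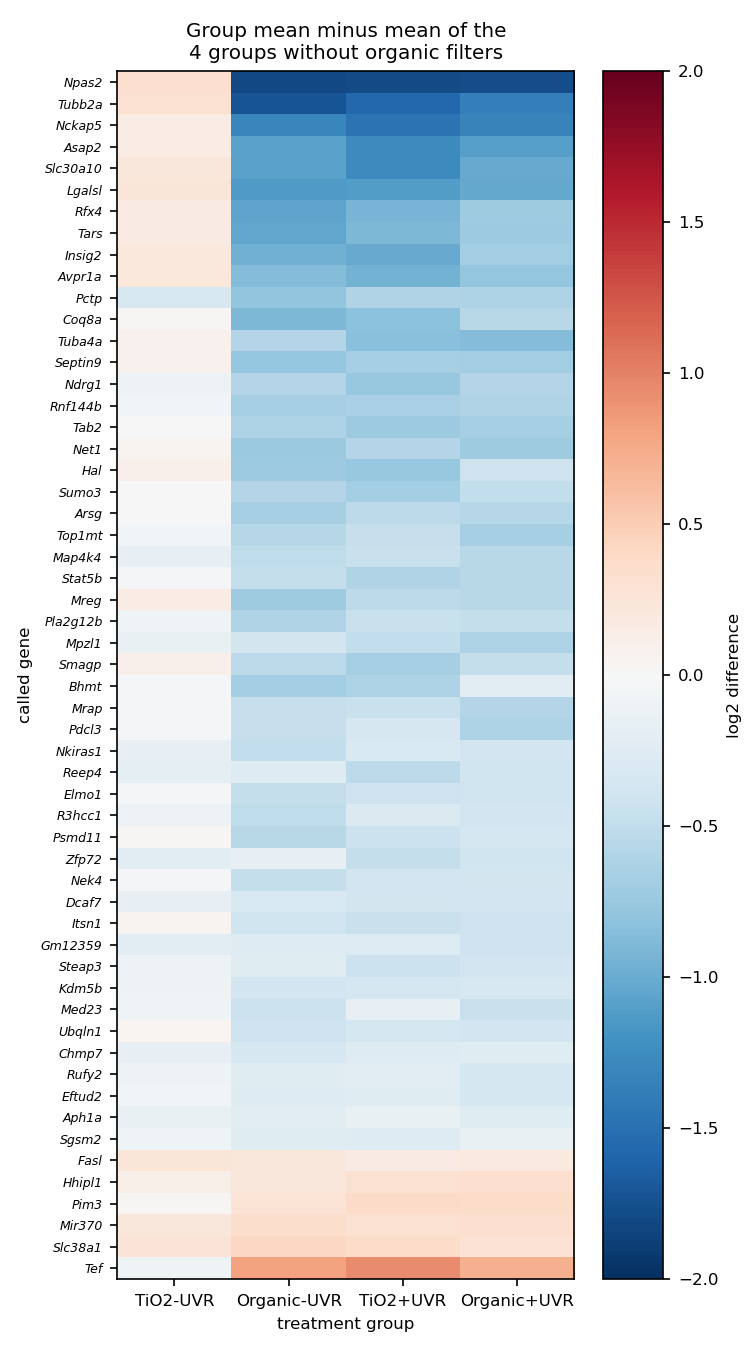
Group mean minus the mean of the 4 groups without organic filters (colour, log2 difference, blue lower and red higher) for the 56 called transcripts with a single gene symbol (y axis) in the 4 groups with organic filters (x axis). The TiO2-UVR column is pale for most genes, where the other columns are blue (Npas2 at −1.77 to −1.80 against 0.34 in TiO2-UVR) and Tef is red.

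The products were therefore compared within each UVR condition, in a fit with a term for each of the 8 groups that was added after this pattern had been seen. Without UVR, 41 transcripts differed between Organic-UVR and TiO2-UVR (0.418%, limma, adjusted p under 0.1), 8 higher and 33 lower in Organic-UVR. Without TiO2-UVR replicate 4 the count was 17, without TiO2-UVR replicate 3 it was 18 and without Organic-UVR replicate 2 it was 26. Of the transcripts called with organic filters, 17 were among them. Npas2 differed by −2.13 (SE 0.41, adjusted p = 0.00578), Tubb2a by −2.04 (SE 0.41, adjusted p = 0.00686), Slc30a10 by −1.29 (SE 0.24, adjusted p = 0.00578), Insig2 by −1.17 (SE 0.22, adjusted p = 0.00578) and Tef by 0.90 (SE 0.22, adjusted p = 0.053). Further clock genes, named here after their values were seen, were called as well: Nfil3 (−1.58, adjusted p = 0.0083), Per1 (0.99, adjusted p = 0.0222), Per2 (0.73, adjusted p = 0.0584), Nr1d2 (1.42, adjusted p = 0.00578) and Ciart (2.47, adjusted p = 0.0433). With UVR, no transcript differed between Organic+UVR and TiO2+UVR (0%; 320 at an unadjusted p under 0.05, or 3.26%). There Npas2 differed by 0.01 (SE 0.41) and Slc30a10 by 0.26 (SE 0.24).

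The arrays can be set side by side in the same comparison. Organic-UVR and TiO2-UVR did not overlap for 17 of the 69 calls, against 0.53% of all transcripts, and Organic+UVR and TiO2+UVR for 0 of 69, against 0.0815%. The 69 were called on these same arrays, and the comparison was chosen after the pattern of TiO2-UVR had been seen. These counts therefore describe the calls and carry no test. The difference between the products in their response to UVR was itself called for 13 transcripts (0.132%), among them Slc30a10 (−1.56, SE 0.34, adjusted p = 0.0592, as the UVR difference under the TiO2 product minus that under the organic product), Insig2 (−1.48, SE 0.31, adjusted p = 0.0592) and Hal (−1.18, SE 0.23, adjusted p = 0.0551). For Npas2 it was −2.15 (SE 0.57, adjusted p = 0.177). Named after their values were seen, Ddc, the aromatic amino acid decarboxylase (−2.02, adjusted p = 0.0673), Nr1d2 (1.68, adjusted p = 0.0673) and Ciart (3.49, adjusted p = 0.0799) were also among the 13. No call of the 13 was left at an adjusted p under 0.05, nor without any one of TiO2-UVR replicate 3, TiO2-UVR replicate 4, Organic-UVR replicate 5, Organic+UVR replicate 3 and Organic+UVR replicate 6.

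The same arrays were also split by UVR without regard to product, which is no separate result. The side without UVR held TiO2-UVR, and also Control-UVR replicates 1 and 5 and ZnO-UVR replicates 1 and 2. These 4 mice without filters had low Npas2 (4.02 to 4.39), and their part in the split was not tested. In mice that were not irradiated, 0 of 9815 transcripts were called between 12 arrays with and 12 without organic filters (0%, smallest adjusted p 0.339), although 1192 passed an unadjusted p of 0.05. In irradiated mice 104 were called between 12 and 11 arrays (1.06%), 37 higher and 67 lower. Of the 69 calls, 44 were called there as well, which is 63.8% of the 69 and 42.3% of the 104. The median size of the 69, which were chosen on both conditions together, was 0.45 with UVR and 0.28 without. Npas2 differed by −1.94 (SE 0.37, adjusted p = 0.00341) with UVR and −0.53 (SE 0.36, adjusted p = 0.504) without. Beside it, Nr1d2 (1.34, adjusted p = 0.00222), Ciart (2.14, adjusted p = 0.0204), Per2 (0.53, adjusted p = 0.0884), Hlf (0.68, adjusted p = 0.00341) and Nfil3 (−1.30, adjusted p = 0.0102) were called with UVR.

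A difference between irradiated and other mice in the contrast itself was called for a single transcript (0.0102%). Abcd2, a peroxisomal transporter of very long-chain fatty acids, was 0.54 (SE 0.15) higher with organic filters under UVR and 0.49 (SE 0.14) lower without UVR, an interaction of 1.03 (SE 0.21, adjusted p = 0.0659). This call was lost in 19 of the 47 fits that each left out 1 array, and with array weights. With UVR the mean of Abcd2 was 8.79 in Control+UVR, 9.44 in ZnO+UVR, 9.67 in TiO2+UVR and 9.58 in Organic+UVR. The difference with UVR thus rested mostly on Control+UVR, the irradiated group with no sunscreen. For Npas2 the interaction was −1.41 (SE 0.52, adjusted p = 0.689), with a 95% interval from −2.45 to −0.37. Of the 69 calls, 29% had an interaction at an unadjusted p under 0.05, against 6.47% of all transcripts.

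**Figure D4:**
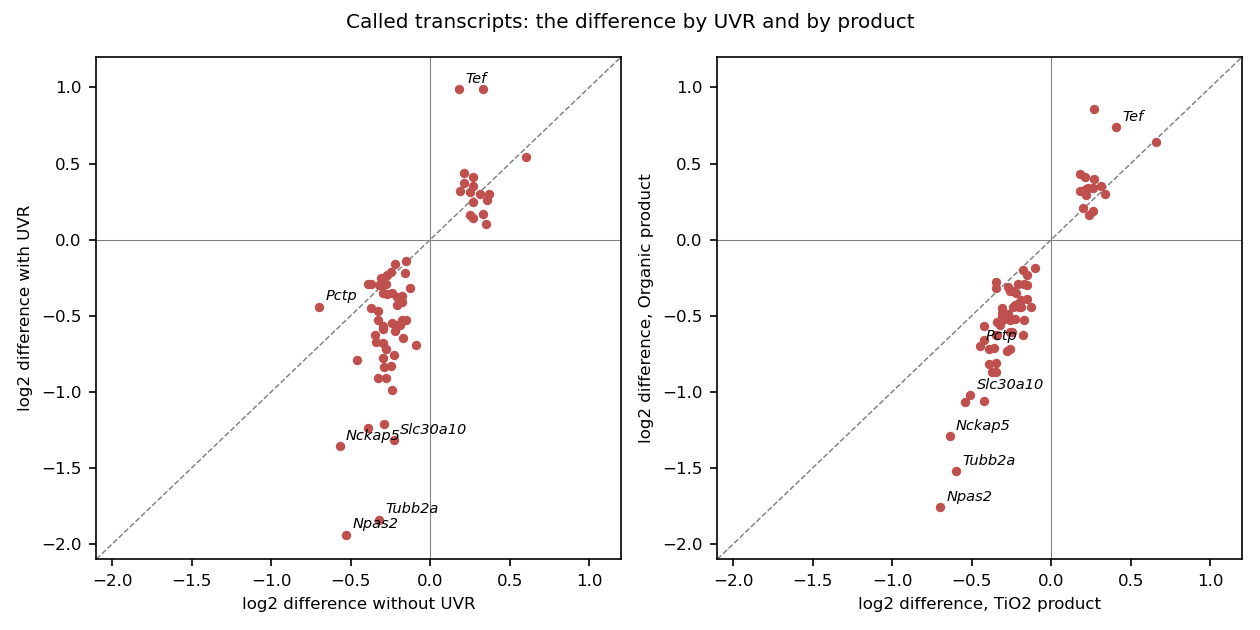
The log2 difference with minus without organic filters for each of the 69 called transcripts: left, without UVR (x axis) against with UVR (y axis). Right, the TiO2 product (x axis) against the organic product (y axis), each compared with the same arrays without filters. The dashed line marks equal differences, and most transcripts called lower lie beneath it in both panels, so their differences are larger with UVR (51 of 69 calls) and with the organic product (63 of 69).

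By product, with UVR as a term, 600 transcripts were called for the organic product against the arm without filters (6.11%), 181 higher (1.84%) and 419 lower (4.27%), and 0 for the TiO2 product (0%, smallest adjusted p 0.996, 375 at an unadjusted p under 0.05). Without Organic-UVR replicate 1 the 600 became 188, without Organic+UVR replicates 2, 4 or 5 they became 392, 326 or 919, and with the array slope as a covariate 132. Both comparisons share their control arrays, and the 69 were chosen on their average, so the direction of the 69 in each is no separate result. Their median size was 0.45 for the organic and 0.26 for the TiO2 product. Over both UVR conditions, 0 transcripts were called between the products directly (0%, 498 at an unadjusted p under 0.05): for Npas2 the difference was −1.06 with a 95% interval from −1.77 to −0.35, and for Pctp −0.25 (SE 0.16). ZnO and no sunscreen, pooled in the arm without filters, gave 0 calls between them (0%, smallest adjusted p 1, 209 or 2.13% at an unadjusted p under 0.05), and Npas2 was 0.50 (SE 0.36) higher with ZnO.

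Lists linked to known concerns about these filters held no call over all arrays. Estrogen receptor signalling had 0 of 9 measured genes called (median −0.10), with Esr1 at −0.01 (SE 0.10), and hepatic estrogen-responsive genes 0 of 3. The thyroid hormone axis had 0 of 6 called, the aryl hydrocarbon receptor list 0 of 3, and the list of the foreign compound receptors CAR and PXR 0 of 3. Of 10 aryl hydrocarbon receptor genes listed, only Ahr, Ahrr and Aldh3a1 were measured. Of 18 listed for CAR and PXR, only Nr1i3, Gadd45b and Abcc3 were. Most listed targets of these receptors thus had no value here. Interferon response genes had 0 of 7 called, all 7 below 0 with a median of −0.18. For the organic product alone, where 4.27% of all transcripts were called lower, the thyroid hormone axis had 2 of 6 lower, the receptor genes Thra (−0.38, SE 0.09, adjusted p = 0.0136) and Rxrg (−0.25, SE 0.08, adjusted p = 0.076), and the interferon response had 3 of 7 lower, Rsad2 (−0.58, SE 0.16, adjusted p = 0.0355), Irgm1 (−0.49, SE 0.15, adjusted p = 0.054) and Irf9 (−0.31, SE 0.11, adjusted p = 0.0919). The 2 estrogen lists and the aryl hydrocarbon receptor, CAR and PXR lists had 0 called there as well. As to precision, the 95% interval of a difference reached ± 0.154 for the median transcript. No metallothionein gene was measured in the table used here.

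Markers of liver cell types were compared in the same fit, and their part in the calls was not tested. The 3 measured hepatocyte markers (Cps1, Serpina1c and Ahsg) had 0 calls and mean levels of 11.56 to 12.72 over the arrays with filters and 11.91 to 12.55 over those without. Of the measured bile duct (3 of 9 listed), endothelial (4 of 12) and Kupffer cell markers (4 of 13), 0 were called. The same held for stellate cells (7 of 14), lymphocytes (5 of 17), neutrophils (4 of 10) and red blood cells (1 of 9). For the organic product alone, 1 bile duct marker was called higher (1.84% of all transcripts). There 1 bile duct, 1 endothelial and 1 stellate cell marker were called lower (4.27%). Over all arrays, Hal was the 1 call among 2 portal markers, and 0 of 5 central vein markers were called. The mean level of the lymphocyte list was 4.85 to 5.43 with filters and 4.83 to 5.39 without.

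The calls nearest the threshold were Dcaf7 (−0.30, adjusted p = 0.0922), Aph1a (−0.19, 0.0957) and Smagp (−0.38, 0.0957) inside it and Thra (−0.27), Inhba (−0.45) and Cnp (−0.34) outside it, each with an adjusted p of 0.104. How many transcripts were called depended on which groups were present. Without TiO2-UVR 622 were called, 206 higher and 416 lower, 68 of the 69 among them. Leaving out TiO2+UVR left 4, Organic-UVR 1, Organic+UVR 5 and ZnO+UVR 0.

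**Figure D5:**
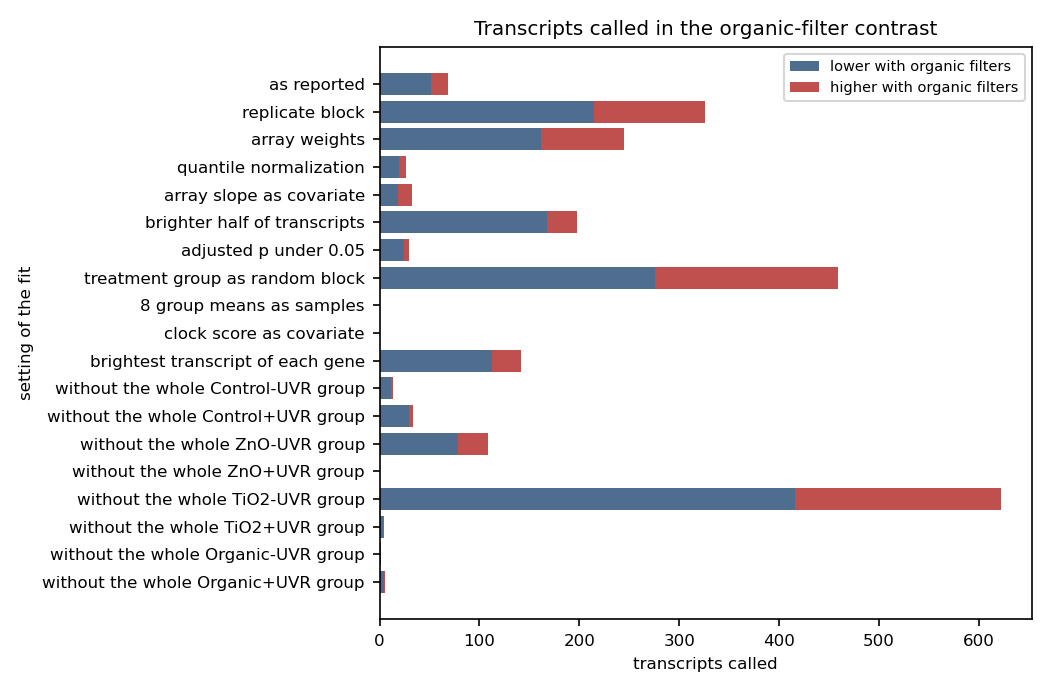
Number of transcripts called at an adjusted p under 0.1 (x axis, or under 0.05 where stated) in the comparison with against without organic filters under each setting of the fit (y axis), split into lower (blue) and higher (red). The count of 69 rose to 622 without the TiO2-UVR group and fell to 0 with the 8 group means as samples, with the clock score as a covariate or without ZnO+UVR. The clock score includes Npas2 and Tef and differs between the arms, so its 0 carries no test.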

How the data were processed

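Liver RNA of 47 mice was hybridized to Mouse Gene 1.0 ST arrays (Affymetrix). The values the authors deposited are log2 after robust multi-array average (RMA), which the submitters' processing notes also name. Their methods describe chip batches with 1 chip of each group and removal of batch effects, and whether the deposited log2 values had that step is not given in the sources used here. The table held 16383 probesets, 6568 of them controls, and the remaining 9815 transcripts, mostly of chromosomes 1 and 10 to 16, were tested. The platform annotation gave 1 symbol to 7450, several to 511 and none to 1854, and 7421 symbols matched RefSeq (GRCm38.p6). For gene lists the brightest transcript stood for each of 6889 genes.

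limma 3.58.1 in R 4.3.3 (lmFit, eBayes) fitted organic filters and UVR as terms (44 residual degrees of freedom), with Benjamini-Hochberg adjustment over all transcripts and calls at an adjusted p under 0.1, as in the study. Further fits held a term for each combination of arm and UVR, for each product, and for each group, the last added after the data were seen. The labels' replicate number was not used as a block, since no source names it as the batch or the animal: over 161 pairs of arrays with the same number, deviations from the group mean correlated from −0.508 to 0.746, 103 of them over 0.1.

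Genes named by rule had a single symbol and were, by size, up to 12 called increases and 12 called decreases, up to 3 called genes per list by p, the 3 with the smallest p of each other comparison and the 5 most like Npas2; uncalled list members and genes said to be so were named after their values were seen. The comparison, the 56 gene lists and the tests were chosen with earlier results of these data known. The scripts were tested on simulated data. The alternatives were a replicate block, array weights, quantile normalization, the array slope or a clock score as a covariate, the brighter part of the transcripts, 1 transcript per gene, a stricter threshold, the treatment group as a random block or as the sample, and leaving out each array or group. The number of arrays limits the precision.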

Additional observations from a re-analysis of the deposited data

Results flagged for a closer look

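In 27 of 304 sets of values, each a named gene or array measure within a treatment group, 1 array lay far from the others, where chance gives about 1 in 20. Organic-UVR replicate 1 was the array most often concerned: it had an array slope of 0.772 (others 0.99 to 1.04), an array median of 5.45 (others 5.20 to 5.27), Mir370 at 5.40, Tars at 7.16, Psmd11 at 7.83, Abcd2 at 8.32, Itgb5 at 6.98 and Atxn10 at 8.38, and without it 38 transcripts were called with organic filters in place of 69. Control+UVR replicate 1 had Pim3 at 6.13, Rfx4 at 5.39, Tuba4a at 9.14, Itgb5 at 7.47 and Abl2 at 4.88, and without it 229 were called.

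In the groups with organic filters, Tef was 5.63 in TiO2-UVR replicate 4, Asap2 7.72 in TiO2-UVR replicate 3, Bhmt 7.89 in TiO2-UVR replicate 5, 1700052K11Rik 6.44 in TiO2-UVR replicate 6, Lgalsl 5.85 in TiO2+UVR replicate 6, Slc38a1 3.47 in Organic+UVR replicate 1 and Itgb5 7.19 in Organic+UVR replicate 4. In the groups without, Tubb2a was 8.64 in Control+UVR replicate 3, Kdelr3 2.85 and Abl2 4.73 in Control-UVR replicate 5, the array slope 1.051 in Control-UVR replicate 6, Pctp 7.71 and Bhmt 8.53 in ZnO+UVR replicate 4, and Abcd2 10.02 in ZnO+UVR replicate 3.

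For Abcd2 the difference with minus without organic filters changed by 1.03 on the log2 scale between irradiated and other mice (limma, adjusted p = 0.0659). Its lowest group mean with UVR was that of Control+UVR, 8.79, against 9.44 in ZnO+UVR. The call was lost in 19 of 47 fits that left out 1 array, among them the one without Organic-UVR replicate 1, which gave 0 calls.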

How the results depend on the processing

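For the 69 transcripts called with organic filters, a replicate block gave 326, array weights 245, the treatment group as a random block 459, the brighter 4908 transcripts 198 and the brightest transcript of each of 6889 genes 142, whereas quantile normalization gave 26, the array slope 32, an adjusted p under 0.05 29, the 8 group means 0 and the clock score 0. In the fit with the treatment group as a random block, the correlation of arrays within a group was −0.0304. A value below 0 narrows the standard errors of this comparison, so the 459 does not allow for a spread between groups. Leaving out a group gave 13 (Control-UVR), 33 (Control+UVR), 109 (ZnO-UVR), 0 (ZnO+UVR), 622 (TiO2-UVR), 4 (TiO2+UVR), 1 (Organic-UVR) and 5 (Organic+UVR). Leaving out 1 array gave 32 (ZnO-UVR replicate 6) to 319 (TiO2-UVR replicate 4), and 29 of 47 arrays moved the count by over 1.5 times, upward in ZnO-UVR replicates 1 (265), 2 (158) and 3 (104), TiO2-UVR replicates 3 (263), 5 (128) and 6 (138), TiO2+UVR replicate 1 (172) and Control+UVR replicate 1 (229). Downward, to 34 to 45, were Control-UVR replicates 2, 4 and 6, Control+UVR 2 and 3, ZnO-UVR 4 and 5, ZnO+UVR 2, 4 and 5, TiO2+UVR 4 and 6, Organic-UVR 1, 2, 4, 5 and 6 and Organic+UVR 2 and 4. With UVR, the 104 became 187 with the block, 164 with quantile normalization, 243 with the slope, 48 under 0.05, and 60 to 160 without 1 array (160 without Organic-UVR replicate 1, and 60 to 68 without Control+UVR 6, ZnO+UVR 4 or 5, TiO2+UVR 4 or 6 or Organic+UVR 1). The 600 of the organic product became 1120 with the block, 360 with quantile normalization, 132 with the slope, 284 under 0.05, and 188 (without Organic-UVR replicate 1) to 919 (without Organic+UVR replicate 5), with 392 and 326 without Organic+UVR replicates 2 and 4. The interaction's 1 became 3 in the brighter transcripts, 0 under 0.05 and 0 to 4 without 1 array. With array weights 1 was called as well, but it was a transcript other than Abcd2. ZnO against Control gave 0 to 1 (without Control+UVR replicate 5). In the fit of 8 groups, the 13 became 32 with the block, 105 with weights, 26 with quantile normalization, 51 with the slope, 23 in the brighter transcripts, 0 under 0.05 and 0 to 41 without 1 array (upward without ZnO-UVR 1 or 2, Organic-UVR 1 or Organic+UVR 5, downward without TiO2-UVR 1, 3, 4 or 6, TiO2+UVR 1, 2, 5 or 6, Organic-UVR 2, 5 or 6 or Organic+UVR 2, 3 or 6). The 41 became 67 with the block, 138 with weights, 69 with the slope, 23 under 0.05 and 17 (without TiO2-UVR replicate 4) to 52, with 18 and 26 without TiO2-UVR 3 and Organic-UVR 2. The cause of these changes was not tested. No named gene changed direction under any of these settings, and the block lost no call of a named gene. Over the comparisons, quantile normalization lost 14 calls of named genes and the array slope 12, and each kept 23 of the 69 calls with organic filters. All 23 named genes called with organic filters lost that call with the 8 group means, with the clock score and without Organic-UVR or ZnO+UVR. Without TiO2+UVR or Organic+UVR, 22 lost it. Of 23 named genes called with organic filters, 17 kept their call without each array in turn, and the call was lost without 1 array for Psmd11 (23 of 47 arrays), Mir370 (25), Fasl (19), Bhmt (8), Tubb2a (8) and Pim3 (6). The replicate numbers were not taken as pairs, since no source ties them to the chip batches. Of 161 same-numbered pairs, 103 correlated above 0.1. As a hint from the data that they may mark a shared factor, 20 of 47 arrays correlated best with their own number, and the median was 0.145 for the same number against −0.0318 for different numbers.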

Other observations

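Peroxisome and fatty acid oxidation genes, targets of the receptor PPARα, had 0 of 11 measured members called over all arrays, and 4 were called higher with organic filters among irradiated mice, where 0.377% of all transcripts were called higher. Among mice without UVR 0 were called, with a median of −0.11 against 0.15 with UVR, and Abcd2 differed by −0.49. The 4 were the acyl-CoA thioesterases Acot3 (1.11, SE 0.24, adjusted p = 0.00992, limma) and Acot4 (0.61, SE 0.16, adjusted p = 0.056), the transporter Abcd2 (0.54, SE 0.15, adjusted p = 0.0743) and the receptor Ppara itself (0.50, SE 0.14, adjusted p = 0.0857). For Abcd2, Control+UVR had a mean of 8.79, whereas ZnO+UVR had 9.44, TiO2+UVR 9.67 and Organic+UVR 9.58.

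Olfactory receptor genes, which liver is not known to use, had 0 of 213 called over all arrays, with a median of 0.07 and 33 below 0. For the organic product 6 of the 213 were called higher, beside 1.84% of all transcripts, and the list's median was 0.11.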
